A study of Mus musculus with 15 samples.

Results

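The comparison described here asks which transcripts moved when Twist1 was put back into 4T1 cells that had been depleted of it. 4T1 is a metastatic mammary carcinoma line of the mouse. Members were the arrays chosen by sample title, 3 of Tw1KD cells (4T1 cells whose endogenous Twist1 was depleted) and 3 of Tw1KD cells given wild-type Twist1 with no substitution, so 6 of the 15 arrays of the series. Parental 4T1 cells and Tw1KD cells carrying Twist1 with S42A or S42D, 3 arrays each, served as reference levels. The S42D arrays are so called by their titles, while their genotype label names both substitutions. One growth protocol, 70% confluency in a medium with puromycin and G418, is given for all lines, and whether it held for the parental cells, which the labels describe without any construct, was not determined. Each genotype was a single line, and how Twist1 was depleted, how it was returned and whether lines were clones or pools are not given in the sources used here. A change caused by Twist1 and a difference that arose between the derived lines therefore cannot be told apart. The labels call the arrays of a line triplicates without saying whether these were separate cultures, so p-values measure the spread between these samples, which may be technical.

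Twist1 is a basic helix-loop-helix transcription factor that pairs with E proteins and binds E-box sequences in DNA. It is known for driving epithelial-mesenchymal transition (EMT), in which carcinoma cells give up the junctions that hold an epithelium together and take on migratory, mesenchymal traits. E-cadherin, the adhesion receptor of adherens junctions and the product of Cdh1, is a classic target that it represses.

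Values were log2 intensities, so a difference of 1 is a 2-fold change. Correlations across genes were 0.9968 to 0.999 between arrays of one line and 0.9771 to 0.9803 between arrays of the different lines. By this measure no array stood apart from its line, although single genes could differ between arrays of a line. Between arrays of Tw1KD cells a gene varied with a median SD of 0.0896, against 0.0526 for the wild-type line, in which some genes, Cdh1 among them, read almost the same on all 3 arrays. The lowest quartile of gene means ended at 5.515, and levels under it are called dim here, a range in which changes may be compressed. Of 19937 genes tested, 4686 (23.5%) were higher and 4880 (24.5%) lower in the wild-type Twist1 line at an adjusted p under 0.05 in limma, in all 9566 (48.0%). With so many calls, a list is read against these shares, and a list in which about 1 member in 4 moves each way is like the rest of the genome. Called changes of at least 2-fold numbered 965 (4.84%), 523 higher and 442 lower. The median difference over all genes was -0.061, and 0.029 after centring every array on its median, and counts made after that centring are called centred counts. Of 14 housekeeping genes, 7 were higher and 3 lower. Small differences thus shift with the scaling. In what follows, rose and fell mean that a gene passed the test in the wild-type line against Tw1KD cells. Differences are log2 values ± SE with n = 3 arrays per line. The SE comes from the limma fit of all 15 arrays, which pools the spread within the 5 lines.

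Twist1 itself was read by probe set 10395320. Its log2 levels were 9.01, 9.03 and 9.07 on parental, 7.47, 7.22 and 7.35 on Tw1KD and 8.35, 8.49 and 8.16 on wild-type arrays. Every wild-type array lay above every Tw1KD array and below every parental array. Twist1 rose by 0.99 ± 0.080 against Tw1KD cells, 1.98-fold (adjusted p = 1.1e-07), and differed from the parental level by -0.70 ± 0.080 (adjusted p = 3.7e-06). Whether the probe set reads the introduced transcript was not determined. The plot of arrays shows Twist1 with 8 genes taken from the groups below.

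**Figure D1:**
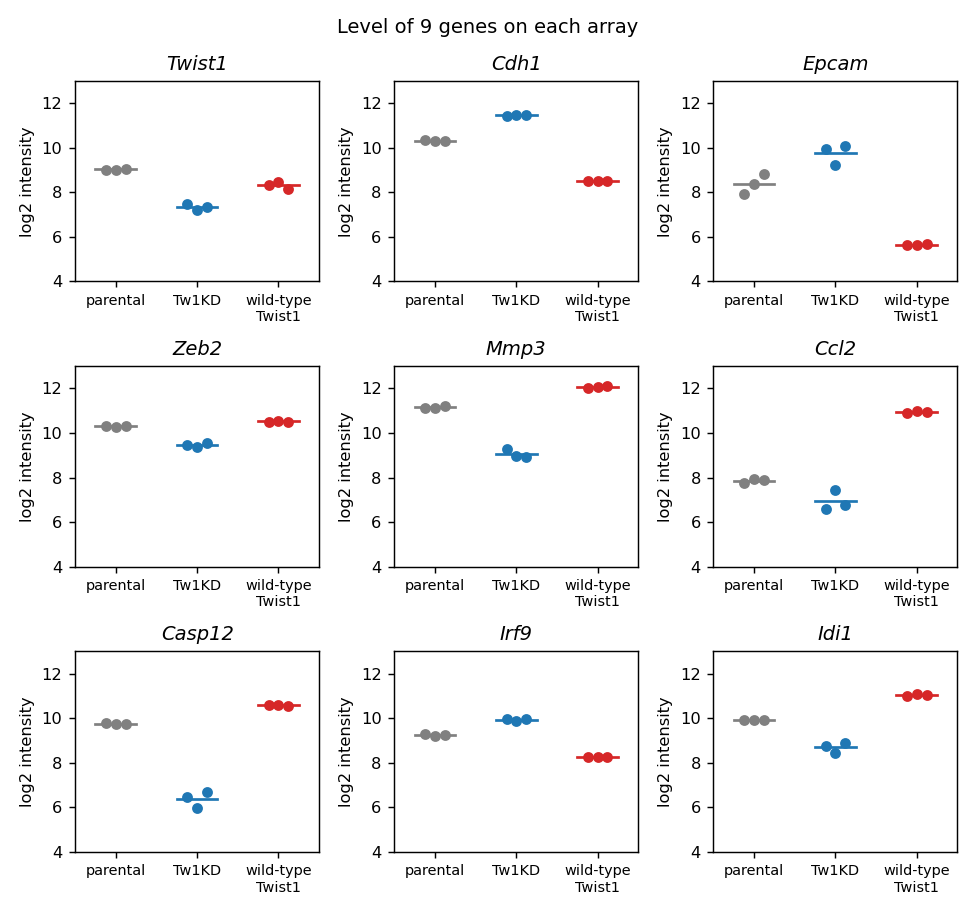
Log2 intensity of 9 genes on each array (dots) with the mean of 3 arrays (bars), for parental cells, Tw1KD cells and the wild-type Twist1 line. Twist1 in the wild-type line lies between its levels in Tw1KD and parental cells, while Cdh1 and Epcam lie below and Ccl2 and Idi1 above both.

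Many genes of cell-cell junctions fell. Cdh1 had levels of 11.45, 11.46 and 11.46 on the Tw1KD arrays and 8.52, 8.52 and 8.52 on the wild-type arrays. Epcam, which encodes an epithelial adhesion molecule, had levels of 9.95, 9.22 and 10.10 on the Tw1KD arrays and 5.64, 5.64 and 5.69 on the wild-type arrays. The groups did not overlap for either gene, and the wild-type arrays of Epcam were close to the dim range. Cdh1 fell by 2.94 ± 0.045 (adjusted p = 8.8e-15) and Epcam fell by 4.10 ± 0.21 (adjusted p = 9.4e-10). Because the RNA is from bulk cultures, fewer cells that express a gene and less RNA per cell cannot be told apart. Both also lay below their parental levels, 10.33, 10.31 and 10.29 for Cdh1 and 7.91, 8.37 and 8.80 for Epcam.

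The epithelial change was uneven across junction types. In adherens junctions, 6 of 19 genes fell and 3 rose, near the shares of all genes. Among the cadherins only Cdh1 fell, and Cdh5, the cadherin of endothelium, rose by 0.36 ± 0.087. Cdh2, the gene of N-cadherin that often replaces E-cadherin in EMT, had a difference of -0.027 ± 0.061 at a mean level of 4.50 in Tw1KD cells and was not called. Of the cytoplasmic partners, the plakoglobin gene Jup fell by 0.88 ± 0.040 and the vinculin gene Vcl fell by 0.42 ± 0.039, while the p120-catenin gene Ctnnd1 rose by 0.24 ± 0.046.

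Desmosomes, which tie cells together through keratin filaments, had 8 of 13 genes lower and 1 higher, with a median difference of -0.36 against -0.061 over all genes. Dsg2, a desmosomal cadherin, had levels of 9.38, 9.23 and 9.33 on the Tw1KD arrays and 6.05, 5.90 and 6.06 on the wild-type arrays. Perp, a membrane protein of desmosomes and a p53 target, had levels of 10.59, 10.29 and 10.41 on the Tw1KD arrays and 6.74, 6.55 and 6.80 on the wild-type arrays. No wild-type array of either gene came near a Tw1KD array. Dsg2 fell by 3.32 ± 0.10 and Perp fell by 3.74 ± 0.091, and the plaque genes Dsp (-2.38 ± 0.087), Pkp2 (-1.59 ± 0.056) and Pkp3 (-0.99 ± 0.049) fell as well. The exception was Pkp4, an armadillo protein of cell contacts, which rose by 0.65 ± 0.040.

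Tight junctions seal the space between epithelial cells. Of 38 tight junction and polarity genes, 20 fell and 5 rose (median -0.225). Among claudins and the occludin family, 10 of 22 fell, led by Cldn4 (-2.85 ± 0.12), the tricellulin gene Marveld2 (-2.83 ± 0.072), Ocln (-2.45 ± 0.078) and Cldn9 (-2.40 ± 0.056). Cldn4 levels were 12.64, 12.58 and 12.63 on the Tw1KD arrays and 9.75, 9.79 and 9.75 on the wild-type arrays. These arrays too were fully separate between the lines. The scaffold gene Cgn (cingulin) fell by 1.07 ± 0.089, whereas Magi1 (0.29 ± 0.045) and Magi3 (0.34 ± 0.054) rose. Of the apical polarity genes, Crb3 fell by 1.45 ± 0.089 and Pard6b fell by 1.10 ± 0.038, while its paralogue Pard6g rose by 1.42 ± 0.060.

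The sequences before the start sites of Epcam and Cldn4 are shown because both genes fell and both hold E-boxes, the kind of sequence that Twist1 dimers bind. Each is the 250 bases upstream of the RefSeq start site in GRCm38.p6, printed 5′ to 3′ on the gene's strand with E-boxes (CANNTG) in capitals. The Epcam stretch is chr17:87635729-87635978 on the plus strand, and that of Cldn4 is chr5:134946935-134947184 on the minus strand.
Epcam: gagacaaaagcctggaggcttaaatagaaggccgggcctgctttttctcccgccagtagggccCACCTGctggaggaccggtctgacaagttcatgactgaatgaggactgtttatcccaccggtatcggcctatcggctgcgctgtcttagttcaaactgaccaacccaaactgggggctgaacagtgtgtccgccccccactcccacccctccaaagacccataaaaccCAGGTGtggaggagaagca
Cldn4: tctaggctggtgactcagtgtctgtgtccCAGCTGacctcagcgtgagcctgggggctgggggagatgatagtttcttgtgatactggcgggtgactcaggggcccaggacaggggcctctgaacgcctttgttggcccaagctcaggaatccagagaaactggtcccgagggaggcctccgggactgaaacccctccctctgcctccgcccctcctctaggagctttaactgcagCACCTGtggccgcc
The E-boxes of Epcam read CACCTG at -187 and CAGGTG at -19, counted from the start site, and those of Cldn4 read CAGCTG at -221 and CACCTG at -14. Such matches are common and single out neither gene. CANNTG, a motif that reads as an E-box on both strands, was present in 69.0% of the 42 promoters of 33 genes of the junction, keratin and epithelial surface lists that fell, against 66.2% of all 32851 promoters of that length. For CATCTG on either strand, the shares were 11.9% and 14.4%. A match is a description of letters, and binding was not measured.

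Keratins, the intermediate filaments of epithelia, moved in both directions, with 4 of 16 lower and 3 higher. Krt19 fell by 2.36 ± 0.081 and Krt7 fell by 1.69 ± 0.056, and both mark simple epithelia. Krt8 and Krt18, the partner keratins of the same epithelia, remained bright. Krt8 had levels of 12.90, 12.88 and 12.89 on the Tw1KD arrays and 13.19, 13.20 and 13.14 on the wild-type arrays, a small rise (0.29 ± 0.034), and Krt18 had levels of 12.75, 12.66 and 12.73 on the Tw1KD arrays and 12.29, 12.32 and 12.31 on the wild-type arrays, a small fall (-0.41 ± 0.041). Both lines thus carried the keratins of simple epithelium, the tissue from which the 4T1 carcinoma line comes. Krt23 rose by 1.27 ± 0.12.

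Epithelial surface genes fell in 13 of 23 cases, and no member rose. The matriptase system, a cascade of membrane serine proteases and their inhibitors on epithelial cells, had 5 of 8 members lower and a median difference of -1.592. St14, the gene of matriptase, had levels of 11.61, 11.59 and 11.58 on the Tw1KD arrays and 7.495, 7.54 and 7.61 on the wild-type arrays. It fell by 4.04 ± 0.060, or 16.5-fold, with no overlap. Prss8, the prostasin gene that works in the same cascade, fell by 1.90 ± 0.078, and Prss22 fell by 2.68 ± 0.059. Of the Kunitz inhibitors of matriptase, Spint2 fell by 1.29 ± 0.036 while Spint1 had a difference of 0.010 ± 0.042 and was not called. Mpzl2, an immunoglobulin-type adhesion gene, had levels of 10.96, 11.01 and 11.21 on the Tw1KD arrays and 5.93, 5.46 and 5.69 on the wild-type arrays. It fell by 5.37 ± 0.11, the largest fall among the named genes. Tmc4 (-3.91 ± 0.071), the folate receptor gene Folr1 (-3.23 ± 0.100) and the ephrin receptor gene Ephb3 (-2.22 ± 0.088) also fell.

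**Figure D2:**
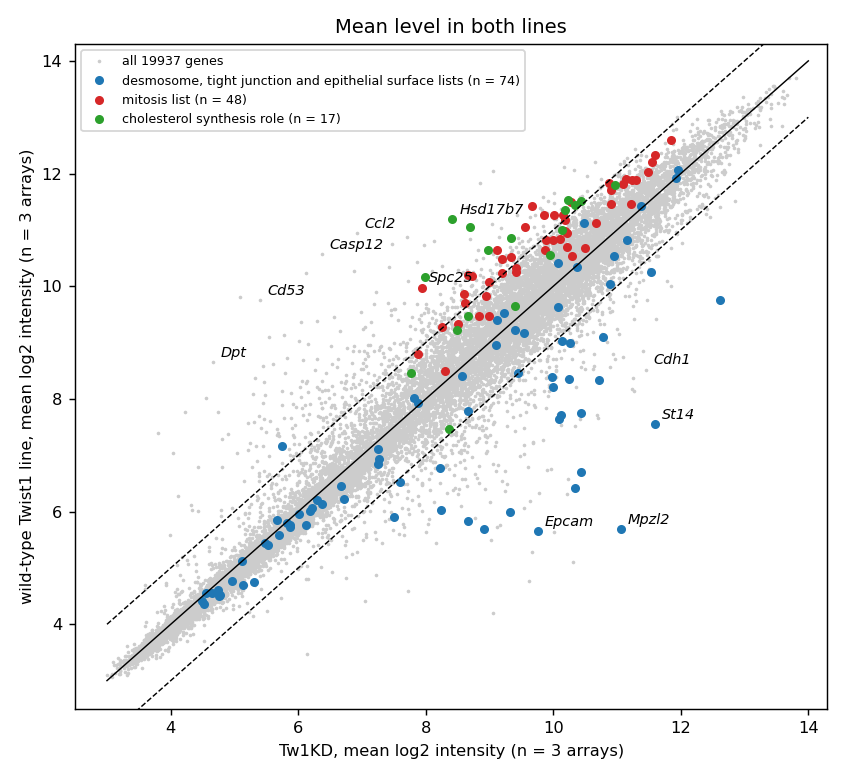
Mean log2 intensity of each gene in Tw1KD cells (horizontal axis) and in the wild-type Twist1 line (vertical axis), 3 arrays each. The solid line marks equal levels and the dashed lines a 2-fold difference. Members of the desmosome, tight junction and epithelial surface lists run down to Mpzl2, and of 48 mitosis genes 47 were called higher.

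Factors that maintain the epithelial state moved in both directions. Of 17 epithelial transcription factors, Ovol1 (-1.56 ± 0.097), Klf5 (-0.86 ± 0.041) and Grhl1 (-0.33 ± 0.079) fell, and Gata3 (0.67 ± 0.036) and Klf4 (0.77 ± 0.058) rose (centred counts, 4 higher and 3 lower). A fall of Elf3 (-0.21 ± 0.070) was not called without replicate 3 of Tw1KD cells (-0.16) or of the wild-type line (-0.17). The others were not called. Of the paired splicing regulators that set epithelial isoforms, Esrp2 had levels of 9.69, 9.57 and 9.82 on the Tw1KD arrays and 8.08, 8.08 and 8.07 on the wild-type arrays and fell by 1.61 ± 0.064. Esrp1 had levels of 8.02, 7.64 and 7.88 on parental, 5.27, 5.27 and 5.07 on Tw1KD and 4.96, 5.12 and 5.08 on wild-type arrays. Its level in both derived lines lay well under the parental one, and it did not return (-0.15 ± 0.086, adjusted p = 0.17). All arrays of both derived lines were in the dim range for Esrp1, where changes may be compressed. Celf1, a splicing factor with a role in EMT, rose by 0.60 ± 0.040.

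In the list of EMT factors and Id inhibitors, 8 of 28 genes rose and 4 fell, with centred counts of 9 and 1. Of the 7 genes of the Twist, Snail and Zeb families, 3 rose, Twist1 itself among them, and none fell. Of 17 other EMT factors 2 rose and 4 fell (centred counts, 3 and 1), and of 4 Id genes 3 rose. Zeb2, a zinc-finger repressor of Cdh1, had levels of 9.47, 9.36 and 9.54 on the Tw1KD arrays and 10.48, 10.56 and 10.51 on the wild-type arrays. Snai1, which encodes the repressor Snail, had levels of 9.94, 9.99 and 9.81 on the Tw1KD arrays and 10.45, 10.45 and 10.43 on the wild-type arrays. Both were higher on every wild-type array, Zeb2 by 1.06 ± 0.046 and Snai1 by 0.53 ± 0.054. The related genes Zeb1 (-0.14 ± 0.059) and Snai2 (-0.11 ± 0.064) were not called, and the Zeb1 and Snai2 means in Tw1KD cells were 5.41 and 4.57, within the dim range. Zeb1 was called lower without Tw1KD replicate 3 (-0.18) or wild-type replicate 2 (-0.19). The Id genes encode proteins that bind E proteins without binding DNA and so compete with factors such as Twist1. Id2 rose by 0.73 ± 0.053 and Id1 rose by 0.19 ± 0.051. Of E protein genes, Tcf4 fell by 0.39 ± 0.035 and Tcf12 fell as well, while Tcf3 was not called.

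Mesenchymal genes moved in both directions. Of 40 measured, 16 rose and 10 fell, with a median of -0.042. The centred counts were 16 and 6 and the centred median 0.049. Pdgfrb, a receptor of platelet-derived growth factor, had levels of 6.39, 6.55 and 6.15 on the Tw1KD arrays and 7.95, 7.93 and 7.93 on the wild-type arrays. It rose by 1.57 ± 0.076 without overlap. The matricellular genes Thbs1 (1.12 ± 0.042), Sparc (1.01 ± 0.033) and Tnc (0.84 ± 0.097), and S100a4 (0.67 ± 0.047), a calcium-binding protein linked to motility, rose. Fbln1 (-0.92 ± 0.059) and Fbln2 (-0.68 ± 0.045), fibulins of elastic matrix, fell, as did the adhesion receptor gene Alcam (-1.73 ± 0.050). The vimentin gene Vim, a standard mesenchymal marker, had levels of 13.46, 13.45 and 13.47 on the Tw1KD arrays and 13.57, 13.52 and 13.58 on the wild-type arrays. The differences of Vim (0.093 ± 0.033) and of the fibronectin gene Fn1 (-0.11 ± 0.037) were small. Omitting Tw1KD replicate 1 or 2, or replicate 1 or 3 of the wild-type line, ended the call of Vim (0.083 to 0.095). Omitting Tw1KD replicate 3, or replicate 2 or 3 of the wild-type line, ended that of Fn1 (-0.11 to -0.089). Pdgfra rose by 0.24 ± 0.043.

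Few collagens rose. Of 24 genes, 8 were called lower and 2 higher, and with each array centred on its median 2 were lower and 3 higher. Without Tw1KD replicate 2 the number lower was 5, and without wild-type replicate 1 it was 4. Col6a1, a beaded-filament collagen, had levels of 9.87, 9.78 and 9.85 on parental, 7.52, 7.78 and 7.67 on Tw1KD and 9.67, 9.74 and 9.71 on wild-type arrays. Tw1KD arrays were lowest, and the rise was 2.05 ± 0.056. Against parental cells the difference was -0.13 ± 0.056 and was not called. Among proteoglycans and related matrix proteins, 8 of 23 rose. Dpt, the gene of dermatopontin, a collagen-binding matrix protein of fibroblasts, had levels of 4.78, 5.04 and 4.46 on parental, 4.61, 4.88 and 4.51 on Tw1KD and 8.62, 8.68 and 8.66 on wild-type arrays. It was in the dim range in parental and Tw1KD cells and bright only on the wild-type arrays of these 3 lines. Bgn, biglycan, rose by 1.63 ± 0.094, and Sdc3, a syndecan, rose by 1.49 ± 0.052. Ogn (osteoglycin) rose by 0.93 ± 0.11 yet at 6.28 stayed far under its parental mean of 10.20.

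The TGF-beta pathway, in which secreted ligands act through receptor kinases and Smad proteins and which is a classic inducer of EMT, was split by role. Over the 42 genes, 11 rose and 13 fell, close to the background, and with each array centred on its median 14 rose and 10 fell. Inhba, whose product forms activin A, had levels of 10.54, 10.35 and 10.61 on parental, 6.57, 6.42 and 6.13 on Tw1KD and 8.15, 8.15 and 8.14 on wild-type arrays. Tgfb2 had levels of 8.89, 8.62 and 8.80 on parental, 5.71, 5.97 and 5.87 on Tw1KD and 7.23, 7.12 and 7.004 on wild-type arrays. Both ligand genes were higher in the wild-type line than in Tw1KD cells on every array, and both remained below every parental array. Inhba rose by 1.77 ± 0.099 and Tgfb2 rose by 1.27 ± 0.090, and Gdf11 rose by 0.70 ± 0.059. The other TGF-beta isoforms went the other way, Tgfb3 by -0.82 ± 0.041 and Tgfb1 by -0.45 ± 0.039. Of the extracellular regulators 5 of 11 fell and none rose (centred counts, 4 and 1). These included Ltbp4 (-2.57 ± 0.039), Ltbp2 (-0.97 ± 0.049) and Ltbp3 (-0.92 ± 0.038), which encode proteins that hold latent TGF-beta in the matrix, and the activin antagonist Fstl3 (-0.96 ± 0.037). Among the receptors, Acvr2a (0.45 ± 0.068), Acvr1 (0.43 ± 0.037), Tgfbr3 (0.38 ± 0.049) and Tgfbr2 (0.19 ± 0.036) rose, while Bmpr1a and Acvr1b fell (centred counts, 6 higher and 1 lower). Of the Smads, the inhibitory Smad7 (0.65 ± 0.043) and Smad6 (0.40 ± 0.049) rose beside Smad2 (0.39 ± 0.059) and Smad5, and Smad1 fell.

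Matrix proteases showed opposite changes within one family. Of 17 metalloproteinases, 5 rose and 5 fell. Mmp3, stromelysin, had levels of 11.10, 11.12 and 11.22 on parental, 9.27, 8.99 and 8.91 on Tw1KD and 12.02, 12.05 and 12.09 on wild-type arrays. Mmp9, a gelatinase, had levels of 11.56, 11.50 and 11.54 on parental, 10.94, 11.01 and 10.94 on Tw1KD and 8.66, 8.76 and 8.69 on wild-type arrays. The arrays of the lines did not overlap for either gene, and the directions were opposite. Mmp3 rose by 2.996 ± 0.072 and the interstitial collagenase genes Mmp1b (3.54 ± 0.14) and Mmp1a (2.005 ± 0.060) rose with it. These Mmp1 copies are close paralogues, so how signal is shared between them is uncertain. Mmp19 also rose (1.25 ± 0.044). Mmp9 fell by 2.26 ± 0.057, and Mmp14 (-0.83 ± 0.035), the membrane-type protease that activates Mmp2, Mmp13 (-0.77 ± 0.10), Mmp11 (-0.74 ± 0.051) and Mmp28 (-0.68 ± 0.063) fell. The plasminogen activators also parted: Plat, tissue type, had levels of 7.30, 6.84 and 7.30 on the Tw1KD arrays and 9.36, 9.36 and 9.36 on the wild-type arrays and rose by 2.21 ± 0.091, while the urokinase gene Plau (-0.84 ± 0.050) and its receptor gene Plaur (-0.54 ± 0.050) fell. No inhibitor rose, and Serpinb5 (maspin) fell by 2.63 ± 0.11. Among the Adam and Adamts proteases, 8 of 13 fell, with Adam8 (-2.57 ± 0.075) and Adam19 (-1.09 ± 0.049) in front, and Adamts4 rose by 0.93 ± 0.059.

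Integrins anchor cells to matrix. None of the 8 beta integrin genes rose and 5 fell, namely Itgb6 (-1.27 ± 0.077), Itgb2 (-1.26 ± 0.049), Itgb5 (-0.96 ± 0.043), Itgb4 (-0.70 ± 0.049) and Itgb3 (-0.62 ± 0.064), and the centred counts were 5 lower and 1 higher. Itga8 had levels of 9.03, 8.96 and 9.07 on the Tw1KD arrays and 5.47, 5.34 and 5.70 on the wild-type arrays. It fell by 3.52 ± 0.069 and Itga2, a collagen receptor subunit, fell by 1.40 ± 0.090, without overlap between the lines, while Itga1 rose by 0.54 ± 0.072. Of 12 laminin and hemidesmosome genes, 4 rose and 4 fell (centred counts, 4 and 3). The laminin-332 chains Lamb3 (-2.45 ± 0.060) and Lama3 (-0.83 ± 0.075), which with Itgb4 form the base of epithelial hemidesmosomes, fell. Plec, Dst, Lamc1 and Lamb2 of the same list rose, as did Itga6.

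**Figure D3:**
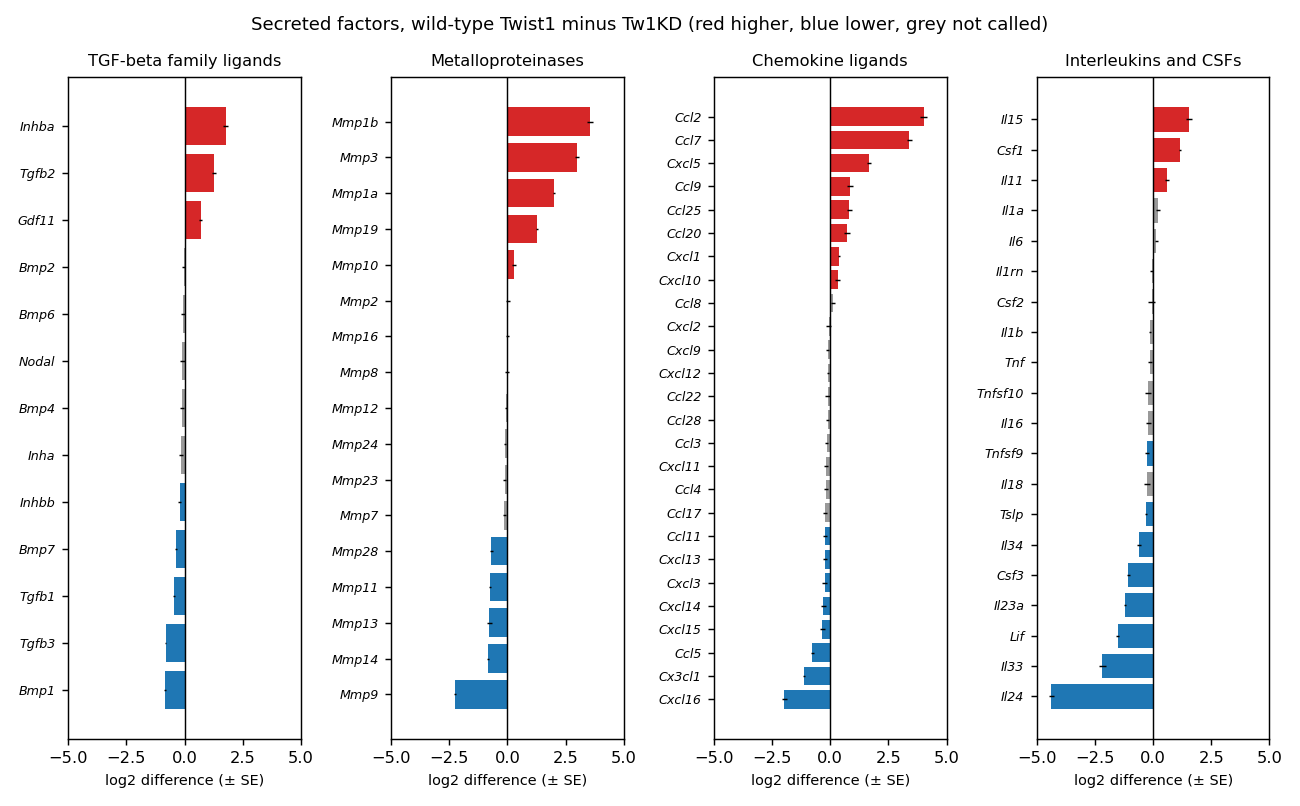
Log2 difference between the wild-type Twist1 line and Tw1KD cells (bars, with SE) for genes of TGF-beta family ligands, metalloproteinases, chemokine ligands, and interleukins and colony-stimulating factors. Bars to the right are higher in the wild-type line; each panel holds large changes in both directions, with Mmp1b and Mmp3 opposite Mmp9 and Ccl2 opposite Cxcl16.

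Chemokine and cytokine genes held some of the widest changes in both directions. Ccl2, which encodes the main monocyte attractant and is a reported Twist1 target, had levels of 7.74, 7.92 and 7.88 on parental, 6.57, 7.45 and 6.77 on Tw1KD and 10.91, 11.01 and 10.93 on wild-type arrays. Ccl7, its neighbour in the genome, had levels of 6.95, 7.03 and 6.70 on parental, 6.84, 7.02 and 6.75 on Tw1KD and 10.15, 10.41 and 10.27 on wild-type arrays. All wild-type arrays were above those of both other lines. Ccl2 rose by 4.02 ± 0.15 and Ccl7 rose by 3.41 ± 0.11, and the neutrophil attractant gene Cxcl5 rose by 1.67 ± 0.084. Falls were led by Cxcl16 (-1.97 ± 0.11) and Cx3cl1 (-1.13 ± 0.037), the chemokines that are made as transmembrane proteins, and by the receptor genes Cxcr3 (-2.82 ± 0.065) and Cxcr2 (-1.14 ± 0.15). Over all chemokine ligands and receptors, 9 rose and 13 fell of 34, and with each array centred on its median 9 rose and 7 fell. Without Tw1KD replicate 2, 8 were called lower.

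Among interleukins and colony-stimulating factors, Il24 had levels of 9.56, 9.69 and 9.73 on the Tw1KD arrays and 5.33, 5.22 and 5.32 on the wild-type arrays. The alarmin gene Il33 had levels of 8.24, 7.64 and 8.29 on the Tw1KD arrays and 6.14, 5.75 and 5.70 on the wild-type arrays. Both were lower on every wild-type array. Il24 fell by 4.37 ± 0.099 and Il33 fell by 2.19 ± 0.14, and so did Lif (-1.53 ± 0.078) and Il23a (-1.22 ± 0.056). In contrast, the macrophage factor gene Csf1 rose by 1.15 ± 0.041 and Il15 rose by 1.55 ± 0.12. Of the receptor genes, Csf2rb, the shared signalling chain of the receptors for GM-CSF, interleukin-3 and interleukin-5, had levels of 6.98, 6.83 and 6.45 on parental, 7.74, 7.59 and 7.80 on Tw1KD and 10.88, 10.88 and 10.88 on wild-type arrays. The wild-type arrays stood above both others. It rose by 3.17 ± 0.098, and its close paralogue Csf2rb2 rose by 1.34 ± 0.058, with which it may share signal.

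Genes better known from leukocytes were among both the 25 largest rises and the 25 largest falls. They were picked after their values were seen. Cd53, a leukocyte tetraspanin, had levels of 6.19, 5.98 and 5.92 on parental, 5.24, 5.67 and 5.30 on Tw1KD and 9.74, 9.78 and 9.75 on wild-type arrays. It rose by 4.36 ± 0.093, with all wild-type arrays above all parental and Tw1KD arrays. Cd28 (3.02 ± 0.079), a co-stimulatory receptor, Tlr7 (2.99 ± 0.076), a receptor for single-stranded RNA, Mcpt8 (3.04 ± 0.14), a basophil protease, Rnase2a (3.45 ± 0.15), and the phagocytic receptor gene Mertk (2.91 ± 0.079) rose as well. Rnase2a and Mcpt8 belong to families of close relatives that may share signal. In the other direction, the leukocyte inhibitory receptor gene Lilr4b had levels of 5.003, 4.84 and 4.72 on parental, 10.37, 10.31 and 10.26 on Tw1KD and 5.35, 4.99 and 4.97 on wild-type arrays. Of these 3 lines only the Tw1KD arrays were bright, and Lilr4b fell by 5.21 ± 0.14, a larger change than that of Cd53. It too has a close paralogue with which it may share signal. Ptprc, the gene of CD45, had levels of 5.14, 5.17 and 5.08 on the Tw1KD arrays and 5.16, 5.08 and 5.13 on the wild-type arrays, and of 13 macrophage and leukocyte markers 1 rose (Cd53) and 2 fell (Cd68 and Csf1r), with centred counts of 1 and 1. Ptprc, Adgre1, Csf1r, Itgam, Lyz2 and Aif1 were in the dim range on every array of both lines. The summed log2 level of the 13 markers was 78.3 to 80.6 in Tw1KD cells and 82.0 to 82.6 in the wild-type line. Without Cd53 the sums were 73.0 to 74.9 and 72.2 to 72.8, so the higher sum rested on Cd53.

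Fibroblast and endothelial markers were looked at in the same way. Of 12 fibroblast markers 3 rose, Dpt, Pi16 (0.66 ± 0.089) and Pdgfra, and 1 fell, Fap (centred counts, 3 and 0). Their summed log2 level was 73.0 to 75.4 in Tw1KD cells and 77.4 to 78.3 in the wild-type line, and without Dpt the sums were 68.5 to 70.5 and 68.7 to 69.7, which overlap. Lum, Fap and Postn were in the dim range on all arrays of both lines. Of 12 endothelial markers 2 rose, Cdh5 and Eng, and 1 fell, Egfl7, with sums of 77.6 to 79.3 and 77.5 to 78.0, and Kdr, Tek and Emcn were in the dim range on all of these arrays. The part of other cells in these results was not tested further.

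The inflammatory caspases rose together. Casp12 had levels of 9.79, 9.74 and 9.74 on parental, 6.44, 5.98 and 6.68 on Tw1KD and 10.59, 10.57 and 10.54 on wild-type arrays. Casp4 had levels of 7.70, 7.56 and 7.66 on parental, 5.82, 5.61 and 5.97 on Tw1KD and 8.50, 8.46 and 8.42 on wild-type arrays. Casp1 had levels of 7.5, 7.36 and 7.69 on parental, 5.37, 5.30 and 5.68 on Tw1KD and 7.97, 7.97 and 7.84 on wild-type arrays. In each case Tw1KD cells were the lowest of these 3 lines, and every wild-type array exceeded every parental one. Casp12 rose by 4.20 ± 0.12, Casp4 rose by 2.66 ± 0.085 and Casp1 rose by 2.48 ± 0.097, and in the mouse gene table they are neighbours on chromosome 9. Casp1 cleaves pro-interleukin-1 beta and Casp4 senses bacterial lipopolysaccharide inside the cell. Of 8 inflammasome sensors, adaptors and effectors, none rose and 3 fell, or 1 with centring, Naip2. The sensor gene Naip2 fell by 1.12 ± 0.096, and the adaptor gene Pycard was not called (-0.18 ± 0.11). A fall of Gsdmd (-0.26 ± 0.087), which encodes the pore protein of pyroptosis, was not called without replicate 3 of Tw1KD cells (-0.20) or replicate 2 of the wild-type line (-0.17), nor with centring (-0.16). Serpins of clade B, mostly intracellular protease inhibitors, were collected after their values were seen. Of 24, 8 rose and 2 fell, with rises of Serpinb9b (3.28 ± 0.12), Serpinb8 (3.13 ± 0.073) and Serpinb9 (2.90 ± 0.088). The Serpinb9 copies are near-identical, so the member read is uncertain.

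The interferon system, through which cells sense viral nucleic acid and raise antiviral and antigen-presentation genes, fell in 47 of 66 members and rose in 11, with a median of -0.414 (-0.323 with each array centred on its median). Irf9, the DNA-binding part of the factor that type I interferon activates, had levels of 9.94, 9.89 and 9.96 on the Tw1KD arrays and 8.27, 8.25 and 8.25 on the wild-type arrays. Isg20, an antiviral exonuclease gene, had levels of 11.89, 11.80 and 11.86 on the Tw1KD arrays and 10.07, 10.01 and 9.94 on the wild-type arrays. The lines were well apart for both. Of the 19 signalling genes 15 fell, including Irf9 (-1.67 ± 0.040), the kinase gene Jak2 (-1.61 ± 0.058), Irf5 (-1.60 ± 0.077) and Irf7 (-1.46 ± 0.13). Socs1, a feedback inhibitor of these kinases, rose by 0.70 ± 0.052. Of 27 effectors 19 fell, among them Isg20 (-1.84 ± 0.049), Parp14 (-1.61 ± 0.11) and Oas3 (-0.91 ± 0.077). Antigen presentation fell in 9 of 11 genes, led by the peptide-trimming enzyme gene Erap1 (-1.16 ± 0.089) and the transporter genes Tap1 (-0.85 ± 0.065) and Tap2 (-0.70 ± 0.044).

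Sensors of the same system were called in both directions. Of 9 sensors, 4 rose, with Tlr4 (0.90 ± 0.065), Aim2 (0.36 ± 0.10) and Sting1 (0.16 ± 0.034) among them, and 4 fell. The exceptions among effectors were Ifit2, Eif2ak2 (0.72 ± 0.070) and Ifit3 (0.38 ± 0.059). Ifit2 had levels of 7.04, 6.95 and 7.06 on parental, 6.12, 5.77 and 6.19 on Tw1KD and 8.22, 8.22 and 8.20 on wild-type arrays. It rose by 2.19 ± 0.085, above both other lines on every array.

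**Figure D4:**
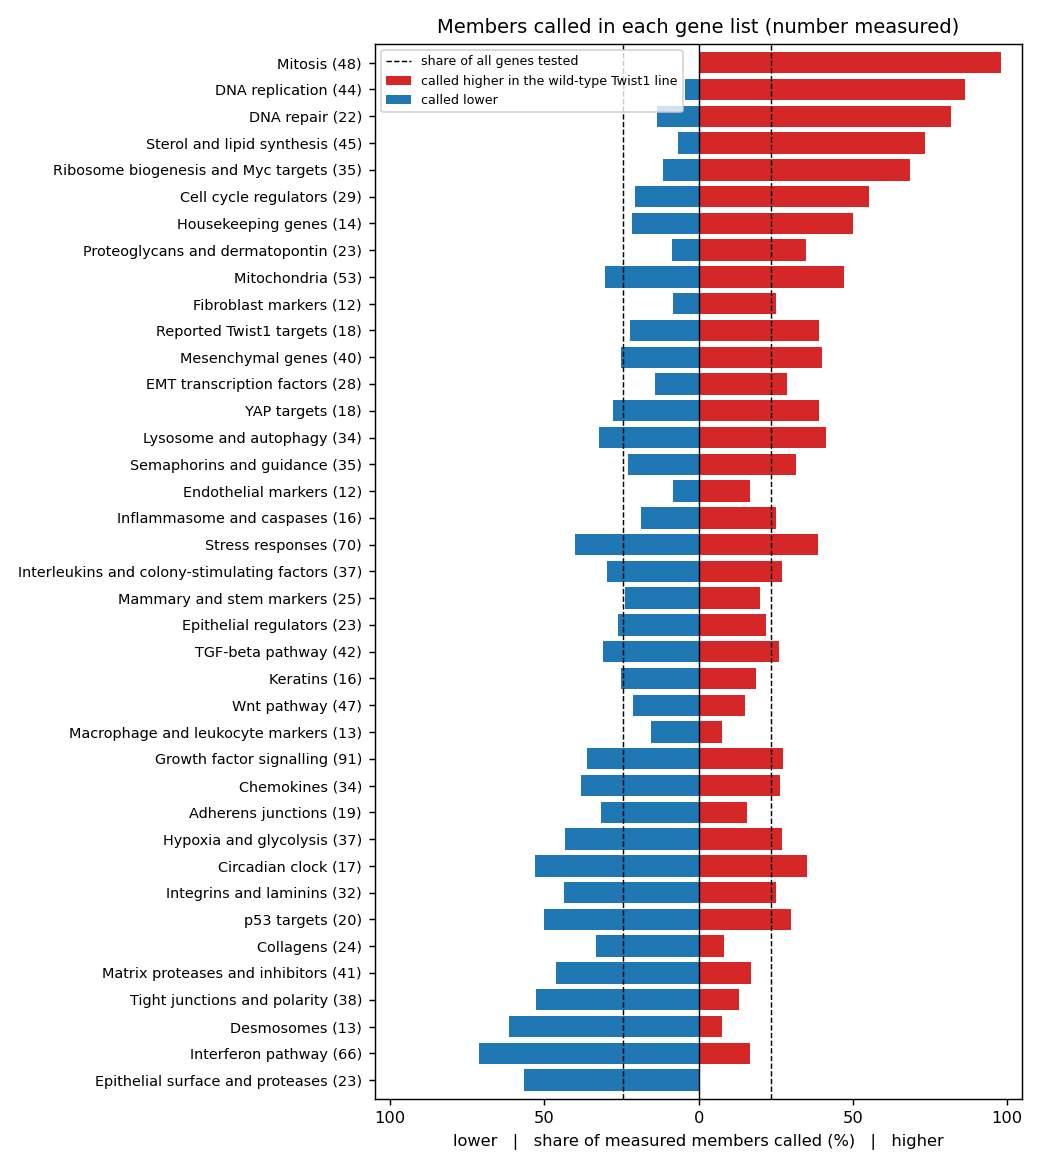
Share of measured members of each gene list that were called higher (red, right) or lower (blue, left) in the wild-type Twist1 line against Tw1KD cells. Dashed lines mark the shares of all 19937 genes, 23.5% higher and 24.5% lower; mitosis, DNA replication and DNA repair reach farthest to the right and epithelial surface, interferon and desmosome genes to the left.

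Proliferation genes rose nearly without exception. Of 48 mitosis genes 47 rose and none fell, with a median of 0.838, and of 44 replication genes 38 rose and 2 fell, with a median of 0.685. Spc25, a part of the kinetochore complex that grips microtubules, had levels of 8.51, 8.44 and 8.58 on parental, 8.19, 7.65 and 7.97 on Tw1KD and 10.07, 9.92 and 9.94 on wild-type arrays. Orc1, a subunit of the complex that marks replication origins, had levels of 7.32, 7.21 and 7.42 on parental, 7.77, 7.31 and 7.85 on Tw1KD and 8.99, 9.11 and 8.92 on wild-type arrays. For both genes the wild-type arrays exceeded those of parental and Tw1KD cells. Spc25 rose by 2.04 ± 0.098, and the kinesin and centromere genes Kif20a (1.77 ± 0.047), Kif4 (1.55 ± 0.12) and Cenpf (1.53 ± 0.058) rose with it. The mitotic kinase genes Nek2 (1.497 ± 0.055), Melk (1.26 ± 0.044) and Aurka (1.21 ± 0.039) rose too. The only mitosis gene not called was Cenpk (0.18 ± 0.090), which was called higher without Tw1KD replicate 3 (0.27).

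In replication, all 9 nucleotide synthesis genes rose, with the thymidylate synthase gene Tyms (1.22 ± 0.049) and the ribonucleotide reductase gene Rrm2 (1.07 ± 0.050) in front. Origin genes rose in 16 of 18 cases, led by Orc1 (1.36 ± 0.12) and the helicase subunit Mcm3 (1.15 ± 0.041). The flap nuclease gene Fen1 rose by 1.29 ± 0.065 and the primase gene Prim1 rose by 1.03 ± 0.067. Those that fell were Cdt1 (-0.23 ± 0.037), which loads the helicase in G1 phase, and the polymerase delta subunit Pold2 (-0.17 ± 0.036). With each array centred on its median, these were -0.14 and -0.076 and no longer called. Homologous recombination and Fanconi genes rose in 14 of 15 cases, led by the nuclease genes Exo1 (1.30 ± 0.076) and Dna2 (1.20 ± 0.089). Mismatch and excision repair was mixed. Of 7 genes 4 rose (Ung, Parp1, Msh6 and Pms2) and 3 fell, with a median of 0.417 and centred counts of 4 and 2. The falls were those of Ercc1 (-1.07 ± 0.053), Xpc (-0.72 ± 0.066) and Apex1.

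The regulators upstream of division were more mixed. Ccne2, a cyclin of the entry into S phase, had levels of 7.60, 7.82 and 7.78 on parental, 8.25, 8.10 and 8.30 on Tw1KD and 9.87, 9.87 and 9.87 on wild-type arrays. Rb1, the retinoblastoma gene that restrains this entry, had levels of 10.24, 10.16 and 10.26 on parental, 10.56, 10.44 and 10.60 on Tw1KD and 9.60, 9.64 and 9.61 on wild-type arrays. Neither gene overlapped between the lines. Ccne2 rose by 1.65 ± 0.078, Ccne1 rose by 1.08 ± 0.053 and the E2f targets and factors E2f7 (0.99 ± 0.035) and Foxm1 (0.99 ± 0.044) rose, while Rb1 fell by 0.92 ± 0.049. The cyclin D gene Ccnd2 fell by 0.75 ± 0.035 and Myc fell by 0.76 ± 0.043, while the other cyclin D genes, Ccnd1 and Ccnd3, rose. Of the inhibitors, Cdkn2d rose by 1.04 ± 0.079. Myc is known for raising ribosome production, and was set beside those genes. Of 35 ribosome biogenesis genes, 24 rose and 4 fell (median 0.318; centred counts, 26 and 2), with Rrs1 (1.31 ± 0.12) and Bop1 (0.89 ± 0.057) highest. Of p53 targets, 10 of 20 fell, Gadd45a (-0.88 ± 0.064) and Polk (-0.78 ± 0.069) most, and with each array centred on its median 7 rose and 7 fell.

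Cholesterol synthesis genes rose in nearly all cases. The pathway builds sterols from acetyl-CoA through mevalonate, isoprenoids and squalene, and its genes are raised by the factor SREBP-2 when sterols run low. Of 17 genes 16 rose, with a median of 1.088. Hmgcs1, the enzyme before the rate-limiting step, had levels of 10.41, 10.36 and 10.43 on parental, 9.35, 9.23 and 9.43 on Tw1KD and 10.83, 10.88 and 10.88 on wild-type arrays. Idi1, isopentenyl-diphosphate isomerase, had levels of 9.90, 9.91 and 9.92 on parental, 8.76, 8.45 and 8.86 on Tw1KD and 11.004, 11.09 and 11.05 on wild-type arrays. For both, the wild-type arrays exceeded the parental arrays and those of Tw1KD cells were lowest. Hmgcs1 rose by 1.52 ± 0.051, Idi1 rose by 2.36 ± 0.081, the later enzymes Cyp51 rose by 2.18 ± 0.096 and Lss rose by 1.67 ± 0.052, and Hsd17b7 rose by 2.77 ± 0.053. The exception was Tm7sf2, a sterol reductase, which fell by 0.90 ± 0.080. Dhcr7, the last step, had the smallest rise (0.25 ± 0.042).

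**Figure D5:**
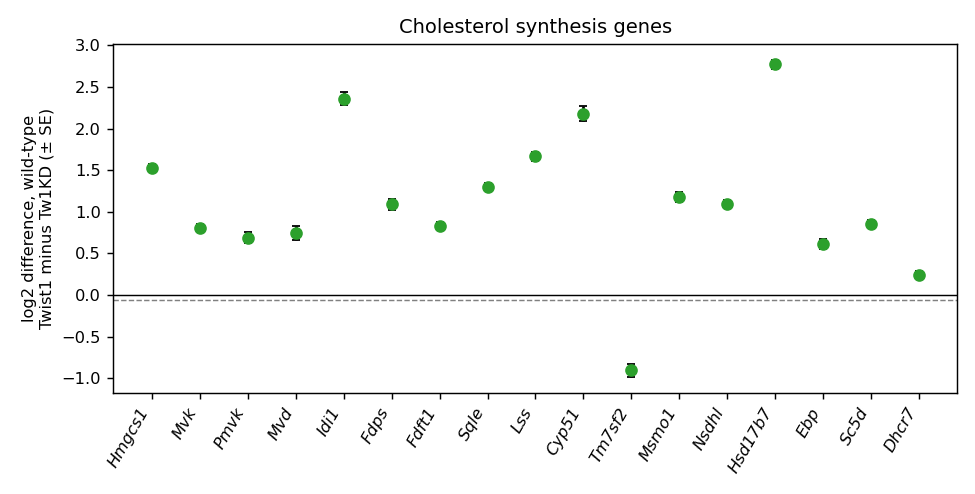
Log2 difference (dots, with SE) between the wild-type Twist1 line and Tw1KD cells for the 17 measured cholesterol synthesis genes, in pathway order from left to right, with the median over all genes as a dashed line. All but Tm7sf2 lie above 0, with Hsd17b7, Idi1 and Cyp51 highest.

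The upstream sequences of Hmgcs1 and Idi1 are shown because Idi1 was among the largest rises of the pathway and Hmgcs1, picked after the search, was the gene with a sterol element. Capitals mark the sterol element TCACNCCAC in Hmgcs1, searched on both strands, and the E-boxes CANNTG in Idi1. Each is again 250 bases before the RefSeq start site in GRCm38.p6, at chr13:119690101-119690350 and chr13:8885356-8885605, both on the plus strand.
Hmgcs1: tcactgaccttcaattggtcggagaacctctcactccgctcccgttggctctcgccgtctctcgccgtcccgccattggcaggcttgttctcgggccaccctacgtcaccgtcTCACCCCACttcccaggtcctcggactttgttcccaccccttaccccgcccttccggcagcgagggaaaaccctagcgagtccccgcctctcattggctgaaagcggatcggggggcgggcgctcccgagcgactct
Idi1: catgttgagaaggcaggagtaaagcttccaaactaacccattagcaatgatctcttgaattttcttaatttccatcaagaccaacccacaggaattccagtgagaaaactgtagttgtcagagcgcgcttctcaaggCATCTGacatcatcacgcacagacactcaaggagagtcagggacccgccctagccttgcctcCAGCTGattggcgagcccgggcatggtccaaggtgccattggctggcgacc
The sterol element of Hmgcs1 reads TCACCCCAC at -137. Among 17 promoters of 14 cholesterol synthesis genes it was the only match, against 1.1% of all promoters. CCAAT, the box of the factor NF-Y that is known to act beside SREBP, was present on either strand in 82.4% of these 17 promoters and 33.8% of all. E-boxes were present in 70.6%, close to the 66.2% of all promoters.

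The genes that sense sterols moved in part with the enzymes. Srebf2, the gene of SREBP-2, rose by 1.05 ± 0.044, its retention factor Insig1 rose by 0.91 ± 0.043, the carrier gene Stard4 rose by 1.39 ± 0.074, and the escort gene Scap rose by 0.29 ± 0.037. The cholesterol exporter Abca1 fell by 0.85 ± 0.11. Fatty acid synthesis rose in 12 of 16 genes and fell in none. The elongase gene Elovl6 had levels of 11.13, 11.07 and 11.10 on parental, 10.001, 10.06 and 9.95 on Tw1KD and 11.65, 11.63 and 11.67 on wild-type arrays. It rose by 1.65 ± 0.046 without overlap, and fatty acid synthase, Fasn, rose by 1.02 ± 0.048, with Fads2 (0.72 ± 0.039) and Srebf1 (0.71 ± 0.046) behind.

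Growth factor signalling had 25 of 91 genes higher and 33 lower, and with each array centred on its median 30 were higher and 23 lower. Irs1, the adaptor of the insulin and IGF receptors, had levels of 9.12, 9.01 and 9.19 on parental, 8.09, 7.84 and 7.98 on Tw1KD and 10.68, 10.79 and 10.74 on wild-type arrays. Erbb3, a neuregulin receptor, had levels of 7.93, 7.75 and 7.97 on parental, 8.82, 8.63 and 9.04 on Tw1KD and 6.56, 6.504 and 6.47 on wild-type arrays. The arrays separated in opposite directions. Irs1 rose by 2.77 ± 0.061, although a dimmer probe set of the gene gave 0.54, and Erbb3 fell by 2.31 ± 0.086, while the neuregulin gene Nrg1 rose by 1.32 ± 0.097. Of 26 ligands 6 rose and 9 fell. The vessel growth factor genes Vegfc (2.43 ± 0.086), Vegfd (1.39 ± 0.091) and Angpt1 (1.14 ± 0.091) and the receptor gene Flt1 (2.12 ± 0.081) rose, while Vegfb fell (-0.42 ± 0.041) and the receptor genes Kdr (-0.034 ± 0.13) and Tek (-0.070 ± 0.074) were not called. These vessel growth genes were grouped after their values were seen. The epidermal growth factor family ligand gene Btc (-1.59 ± 0.10), the adaptor gene Gab1 (-1.44 ± 0.11) and the phosphoinositide phosphatase gene Inpp4b (-1.65 ± 0.12) fell. Of the feedback inhibitors of ERK signalling, Spry1 fell by 1.76 ± 0.058 and Spred1 rose by 0.89 ± 0.048.

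Wnt genes were quieter, with 30 of 47 not called. The 10 called lower became 18 without Tw1KD replicate 3. Wnt7a had levels of 6.604, 6.55 and 6.505 on parental, 9.81, 9.40 and 9.42 on Tw1KD and 5.997, 6.16 and 6.05 on wild-type arrays. It fell by 3.47 ± 0.091, and lay -0.49 ± 0.091 from the parental level. Wnt10a (-1.22 ± 0.054) and the secreted antagonist gene Notum (-1.43 ± 0.12) fell, while Apcdd1, a membrane inhibitor of the pathway, rose by 1.85 ± 0.037. Of 18 genes listed under the Hippo factor YAP, 7 rose and 5 fell, with centred counts of 8 and 2, and 7 each way with quantile normalization. Beside targets, the list holds Yap1 itself, which rose, and genes of the pathway, of which Wwtr1 and Lats2 fell and Tead1 and Tead4 were not called. The matricellular genes Ccn3 (3.32 ± 0.063), Ccn2 (1.45 ± 0.047) and Ccn1 (0.73 ± 0.037) rose, and Ankrd1 (-0.28 ± 0.039) fell. Of 35 semaphorin and guidance genes, 11 rose and 8 fell (centred counts, 11 and 3). Sema3c rose by 1.90 ± 0.085 and its receptor gene Nrp1 rose by 1.40 ± 0.051. Sema4d fell by 1.75 ± 0.063, where a second probe set gave -0.32.

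Metabolic and stress genes changed by role. Among hypoxia genes 10 of 17 fell and 4 rose (centred counts, 8 lower and 4 higher). Car12, a membrane carbonic anhydrase, had levels of 10.80, 10.68 and 10.68 on parental, 9.48, 9.46 and 9.48 on Tw1KD and 6.94, 7.08 and 6.96 on wild-type arrays. All wild-type arrays were below those of parental and Tw1KD cells. Car12 fell by 2.48 ± 0.049, and its relative Car9 fell by 1.59 ± 0.076. Glycolytic genes were even, 6 up and 6 down. The regulatory kinase genes Pfkfb3 (1.499 ± 0.076) and Pfkfb4 (-1.66 ± 0.059) moved in opposite directions. Amino acid stress genes under ATF4 fell in 13 of 19 cases and rose in 3, with Stc2 (-1.44 ± 0.084) and Trib3 (-1.13 ± 0.050) lowest. Antioxidant genes under Nrf2 rose in 12 of 22 cases and fell in 4. The rises included the factor gene Nfe2l2 itself (0.66 ± 0.047) and its inhibitor gene Keap1 (0.71 ± 0.044). The small heat shock gene Hspb1 fell by 1.59 ± 0.21.

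Subunits of the respiratory chain rose in 17 of 27 cases and fell in 4, with Ndufa4 (1.02 ± 0.065) and Ndufs1 (0.77 ± 0.050) highest. The coactivator genes of mitochondrial growth diverged, as Ppargc1a fell by 1.72 ± 0.12 and Ppargc1b rose by 0.91 ± 0.041. Clock genes moved in 6 of 17 cases up and 9 down, or 7 and 7 with each array centred on its median. Hlf, a clock output factor, had levels of 5.85, 5.997 and 5.79 on the Tw1KD arrays and 8.06, 8.11 and 8.17 on the wild-type arrays. It rose by 2.23 ± 0.061 without overlap, whereas the related output gene Dbp fell by 0.91 ± 0.057. Of 25 mammary and stem cell genes, 5 rose and 6 fell. The estrogen receptor gene Esr1 fell by 1.16 ± 0.055, the protein C receptor gene Procr fell by 0.94 ± 0.060, and the aldehyde dehydrogenase gene Aldh3a1 rose by 1.48 ± 0.047. The polycomb gene Bmi1, a reported Twist1 target, rose by 0.77 ± 0.059, and of 18 genes reported as Twist1 targets 7 rose and 4 fell. Of 34 lysosome and autophagy genes, 14 rose and 11 fell (centred counts, 14 and 6).

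The single largest rise was in Hsd17b11, a lipid-droplet dehydrogenase gene. Its levels were 10.55, 10.52 and 10.61 on parental, 5.31, 4.83 and 5.10 on Tw1KD and 9.79, 9.83 and 9.79 on wild-type arrays, against 5.10, 4.79 and 5.06 with S42A and 10.78, 10.78 and 10.83 with S42D. Tw1KD and S42A arrays were low and the others high. Other large rises outside the lists were those of Gpm6b (4.10 ± 0.063), Mest (3.35 ± 0.063), an imprinted gene, Mamdc2 (3.08 ± 0.062), Hacd4 (3.03 ± 0.12) and Igfbp7 (2.98 ± 0.087), which encodes an insulin-like growth factor binding protein. Large falls included those of Aspa (-4.84 ± 0.11), the aspartoacylase gene, the sulfotransferase gene Sult2b1 (-3.65 ± 0.062), the annexin gene Anxa8 (-3.39 ± 0.11), the kallikrein gene Klk10 (-3.06 ± 0.051), the unconventional myosin gene Myo1d (-3.12 ± 0.047), Gipc2 (-3.76 ± 0.091) and Dpep1 (-3.40 ± 0.089).

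The wild-type line was also set against the 3 other lines, comparisons that share its arrays. It differed from parental cells in 9778 genes (49.0%), from the S42A line in 7978 (40.0%) and from the S42D line in 8630 (43.3%). Cdh1 in the wild-type line was -1.79 ± 0.045 against parental cells, 2.18 ± 0.045 against the S42A line and 1.02 ± 0.045 against the S42D line. Its levels were 6.41, 6.26 and 6.33 with S42A and 7.58, 7.46 and 7.46 with S42D, so both substituted lines lay below the wild-type one. For Epcam these differences were -2.70 ± 0.21, 0.11 ± 0.21 and 0.026 ± 0.21, of which only the first passed the test. Cd53, in contrast, read 5.76, 5.77 and 5.67 with S42A and 11.40, 11.33 and 11.37 with S42D, low in one and higher than wild type in the other. For Ccl2 the wild-type line was higher than each, by 3.10 ± 0.15, 1.74 ± 0.15 and 1.70 ± 0.15. Mmp9 was lower than in parental (-2.83 ± 0.057) and S42D cells (-2.03 ± 0.057) and higher than in S42A cells (1.49 ± 0.057). Idi1 was above parental (1.14 ± 0.081) and S42D cells (1.70 ± 0.081) and was not called against S42A cells (0.017 ± 0.081).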

How the data were processed

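Gene expression was read on 15 arrays of 5 lines. The values are the log2 intensities of the deposited series table, 1 per probe set, as the authors summarised them. Their scale was read from the values. R 2.10.0 and affy are named in the submitters' processing notes, with no role. Background correction, normalization and summary are not given in the sources used here. If arrays were scaled to each other, changes common to all transcripts would be lost. Precision is limited by having 3 arrays a line.

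Of 34760 probe sets, 21640 had 1 gene symbol, 1321 several and 11799 none. Symbols were updated through the GRCm38.p6 gene table (21553 matched). The brightest probe set stood for a gene, giving 19937 genes. All 15 arrays were fitted in 1 limma 3.58.1 model (R 4.3.3) with a mean per line, and genes were called at a Benjamini-Hochberg adjusted p under 0.05, 2-sided. The fit was tested on simulated data.

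Members and the 39 gene lists (1215 genes measured) were chosen with earlier results of these data known. Lists are described by counts and medians, without a test. Named genes are the 25 largest non-overlapping rises and falls, up to 4 per role and direction, roles of 5 or fewer and a fixed set. Dhcr7, Hmgcs1, Ptprc, Vegfb, Kdr and Tek were added after their values were seen. Gene models without a proper name were counted and not named. With the mean of its line taken off each array, same-numbered wild-type and Tw1KD arrays had correlations of 0.045, -0.134 and -0.296 across genes. With 3 arrays a line these values cannot settle whether replicate numbers paired samples, and the main fit used no pairing. Other scalings, probe-set rules, fits and omitted arrays were tried. Promoters are RefSeq's.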

Additional observations from a re-analysis of the deposited data

How the results depend on the processing

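With each array centred on its median, 3040 genes were called lower, and 64.3% of called genes were higher (54.7% with quantile normalization) against 49.0%. That setting gave 2 collagens and 7 chemokine genes lower, and quantile normalization 4 and 7. With genes under the median brightness left out, 5 desmosome, 12 tight junction and polarity, 8 epithelial surface and 4 chemokine genes were called lower, since fewer genes were tested. Without 1 array, collagens called lower ranged from 4 to 10, chemokine genes from 8 to 13 and Wnt genes from 9 to 18. With the replicate block, 9407 genes were called. Signs turned for Cdh2 (0.064 with median centring, 0.054 with quantile normalization, 0.026 with array weights, -0.076 to 0.057 without 1 array), Spint1 (-0.021 with quantile normalization, -0.011 to 0.026 without 1 array), Kdr (0.057 with median centring, 0.066 with quantile normalization, -0.139 to 0.019 without 1 array), Tek (0.020 with median centring, 0.025 with quantile normalization) and Ptprc (0.081 with median centring, 0.087 with quantile normalization, -0.035 to 0.010 without 1 array), none called; the cause was not tested. Of 268 genes followed, 255 kept direction and call under every alternative run that held them. Genes under the median brightness were absent from the run that left them out, and single genes were not followed in the run of every probe set. Most of these genes were named for large, called changes without overlap, so their stability was in part set by that choice.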

Other observations

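In the order of the mouse gene table, the caspase genes and several metalloproteinase genes lie in one stretch of chromosome 9. This stretch was picked after its values were seen. Of the 21 measured genes from Casp1 to Yap1, 10 rose, 3 fell and 8 were not called, with a median difference of 0.050. Casp12, Casp4, Casp1, Mmp1b, Mmp3 and Mmp1a rose by 2.005 to 4.20, while between and beside them Mmp13, Dync2h1 and Birc3 fell and Pdgfd, Mmp12, Mmp8, Mmp20, Mmp7 and Birc2 were not called.

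Probe sets for microRNA genes were counted apart from the lists. Of 296 measured, 5 were called higher and 94 lower, in all 33.4%. Of all genes 23.5% were higher and 24.5% lower, in all 48.0%. The median difference was -0.127 against -0.061 over all genes. These counts were not repeated after centring, and small differences shift with the scaling, so a general fall of microRNA genes was not tested.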
